A study of Mus musculus with 23 samples.

Results

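Myosins are motor proteins that pull on actin filaments with the energy of ATP. Nonmuscle class II myosins assemble into bipolar filaments that tense the cell cortex and junctions, whereas the unconventional myosins work as carriers, tethers or tip motors on membranes, vesicles and filopodia. In gut epithelium, class V and class VI motors carry cargo to and from the apical surface, and class I motors link the membrane to the actin core of microvilli. Levels are described here for 7 myosin genes of tumour epithelium in sorted Basp1-reporter populations: Myo5c, Myo5b, Myo6, Myo1d, Myo10, Myh9 and Myh14. They were taken by gene symbol, and all 7 were found among the 54354 genes of the count table. Myo5c was chosen by its measured level, which leaned upward in GFP-positive cells in these same libraries, so its difference between the populations is a description and was not tested. The other 6 genes were listed with it by name.

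The libraries are 11 of GFP-positive and 12 of GFP-negative cells, sorted from primary tumours in mouse colon. The tumours grew from Basp1-eGFP-DTR; AKP-tdT organoids placed orthotopically, and both populations carry the same genotype, which the labels give as Basp1-GFP. AKP-tdT organoids are cultured tumour epithelium that carries the red marker tdTomato. Basp1 encodes a membrane-bound signalling protein, and its reporter yields eGFP together with DTR, the receptor of diphtheria toxin. The series title carries the letters HFD, yet no sample label names a diet, and diet entered no comparison. The labels give no age or sex of the host mice, no time after injection, and no word on whether the organoid line was 1 clone. The design text names digested tumours while the extraction text names organoids, so the exact input of the RNA preparation is uncertain. The labels do not say whether each library stands for its own mouse. Every p-value here therefore rests on the spread between libraries, part of which may be technical.

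Depth limited what could be seen of these genes. Total counts ran from 37125 to 4238877 in GFP-positive libraries and from 25458 to 2304316 in GFP-negative libraries, and 1 GFP-positive and 3 GFP-negative libraries had fewer than 100000. The median total was 1418140 in GFP-positive and 144334.5 in GFP-negative libraries, so depth differed along with the sort. The part of depth in low or 0 values of the rarer genes in GFP-negative libraries was not tested. Levels are given as CPM, counts divided by the library total and scaled to a common sum. Basp1 itself averaged 57.8 ± 32.9 CPM in GFP-positive (SD, n = 11) and 33.4 ± 27.0 CPM in GFP-negative libraries (SD, n = 12). Its levels overlapped, from 13.3 through a median of 51.3 to 108 CPM in GFP-positive and from 0 through 27.7 to 83.8 CPM in GFP-negative libraries. All 12 epithelial markers listed, among them Epcam and Cdh1, had counts in both populations. Their summed level ran from 2884 through a median of 6636 to 7655 CPM in GFP-positive libraries. In GFP-negative libraries it ran from 2805 through a median of 5039 to 8103 CPM. The library numbers fall into 2 runs, called library set 1 (5 GFP-positive, 6 GFP-negative) and library set 2 (6 and 6), which may be a batch. Across all 6621 genes that passed the filter on low counts, edgeR's quasi-likelihood test called 0.0151% at a Benjamini-Hochberg adjusted p under 0.05, a single gene that was lower, and 4.95% at an unadjusted p under 0.05. The called gene was Fbln1, which is in the fibroblast marker list used below (log2 fold change -3.17, SE 0.54, edgeR adjusted p = 0.0119). None of the 6 myosins other than Myo5c passed the adjusted threshold. In bulk libraries such as these, fewer cells of a type and less RNA per cell cannot be told apart.

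Myo5c encodes a class V myosin of exocrine and other glandular epithelium that moves secretory granules and tubular carriers. The gene (ENSMUSG00000033590) lies on chromosome 9, from 75232020 to 75305451 on the plus strand of mm10. Because it is the gene for which the set was drawn up, the 250 bases before its RefSeq start site are shown, read from the plus strand at chr9:75231764-75232013 of GRCm38.p6, the assembly named mm10. Capitals mark matches on either strand to the GC box GGGCGG, the CCAAT box CCAAT and the TATA box TATAAA.
Myo5c: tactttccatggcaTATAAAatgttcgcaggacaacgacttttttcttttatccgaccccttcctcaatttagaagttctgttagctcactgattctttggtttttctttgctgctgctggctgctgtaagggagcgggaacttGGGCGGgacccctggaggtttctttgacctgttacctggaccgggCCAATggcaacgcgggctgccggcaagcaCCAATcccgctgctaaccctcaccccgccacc
The CCAAT boxes begin 61 and 32 bases before the start and the GC box 106 bases before it. The TATA box letters begin 236 bases before the start. Of 32851 promoter windows of the same length in the RefSeq table, 33.8% hold CCAAT, 32.7% hold GGGCGG and 12.4% hold TATAAA, on either strand. The letters TGACTCA (AP-1 element) and CAGGTG (an E-box) were searched too and are not in this window, and 4.46% and 17.2% of all windows hold them. The windows of Myo6, Myo10, Myh9 and Myh14, matched by symbol in the same table, hold neither of them. A match of letters is a description and was not tied to any measured binding.

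Myo5c ranged from 13.5 CPM through a median of 38.3 to 107 CPM in the 11 GFP-positive libraries, and from 0 through 11.7 to 31.2 CPM in the 12 GFP-negative libraries. The groups overlapped: 7 of 11 GFP-positive libraries lay above every GFP-negative library, and the other 4 lay within the GFP-negative range. All 11 GFP-positive libraries were above the GFP-negative median, and no GFP-negative library reached the GFP-positive median. The means were 43.7 ± 29.0 CPM in GFP-positive (SD, n = 11) and 12.3 ± 9.95 CPM in GFP-negative libraries (SD, n = 12). The fitted log2 fold change, GFP-positive over GFP-negative, was 1.38 (SE 0.39). Of the 6621 genes tested, 5 had a larger one, and Myo5c was chosen with this value known. That number was 1 to 17 with single libraries left out (1 without GFP-negative 3, 7 or 10, 17 without GFP-positive 9), 12 without libraries under 100000 counts and 1882 without the filter. Pooling all counts gives the deep libraries more weight, and the pooled level was 34.9 CPM in GFP-positive (658 counts) and 16.3 CPM in GFP-negative libraries (99 counts).

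**Figure D1:**
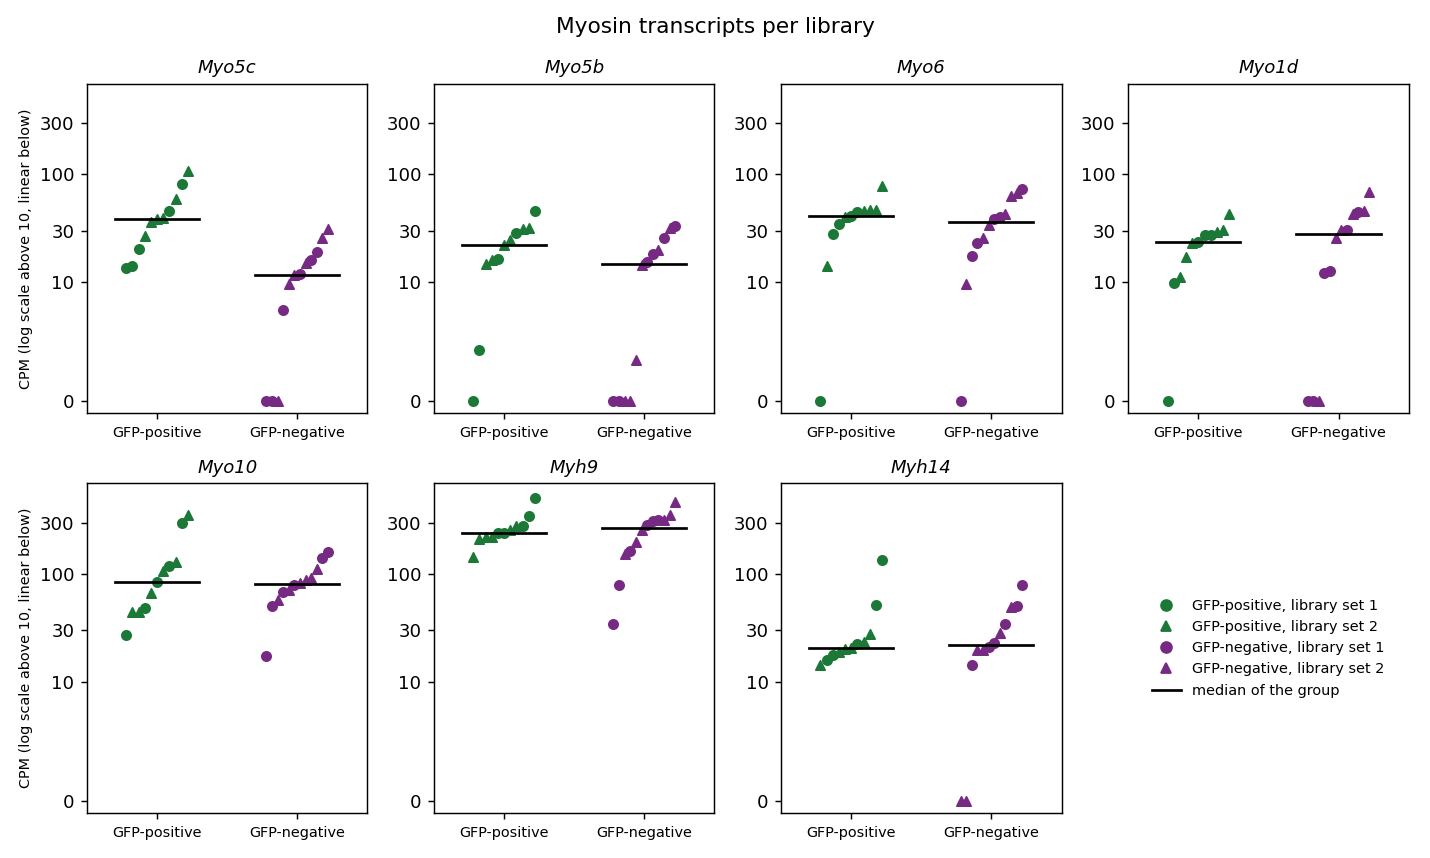
Level of each myosin gene in each library (points, CPM, linear below 10 and logarithmic above), with GFP-positive left of GFP-negative libraries, circles for library set 1, triangles for set 2 and a line at the group median. Myo5c has medians of 38.3 and 11.7 CPM in GFP-positive and GFP-negative libraries, while the points of the other 6 genes overlap over most of their range.

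Within library names the direction was mostly shared. The identifier that opens a library name ties a GFP-positive to a GFP-negative library in 10 cases. One of them, 8045-8050, was formed here by joining GFP-negative libraries named 8050 and 8045 to a GFP-positive library named 8045-8050, and in 61-1 a GFP-positive library of set 1 was averaged with one of set 2. GFP-positive cells had the higher Myo5c level in 9 of the 10. Myo5c was chosen by its level in these same libraries, so this number is a description, and it was not taken over all genes. In 7421 and 7914 the GFP-negative level rested on 1 count each. In identifier 7907 it stood at 107 CPM (92 counts) in GFP-positive and 25.8 CPM (3 counts) in GFP-negative cells. In identifier 3034 it stood at 46.0 CPM (195 counts) in GFP-positive and 11.8 CPM (5 counts) in GFP-negative cells. The exception was 7789-7795, with 14.2 CPM (30 counts) in GFP-positive and 16.1 CPM (37 counts) in GFP-negative cells. In a pair of identifiers the GFP-negative libraries had no Myo5c count. These were 8045-8050, with 3 counts or 80.8 CPM in GFP-positive 4 (exact Poisson 95% interval 16.7 to 236 CPM, counting error only), and 7968, with 39.5 CPM in GFP-positive 11. In the GFP-negative libraries grouped under these identifiers (4, 5 and 12) 3 counts would stand for 52.0, 118 and 43.1 CPM, so a count of 0 there does not show that the transcript was absent. Mitochondrial ribosomal RNA took 9.07% of the counts in GFP-positive 4, and 32.1% and 11.97% in GFP-negative 4 and 5, against 1.76% to 4.99% in all other libraries, and its part in these values was not tested.

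**Figure D2:**
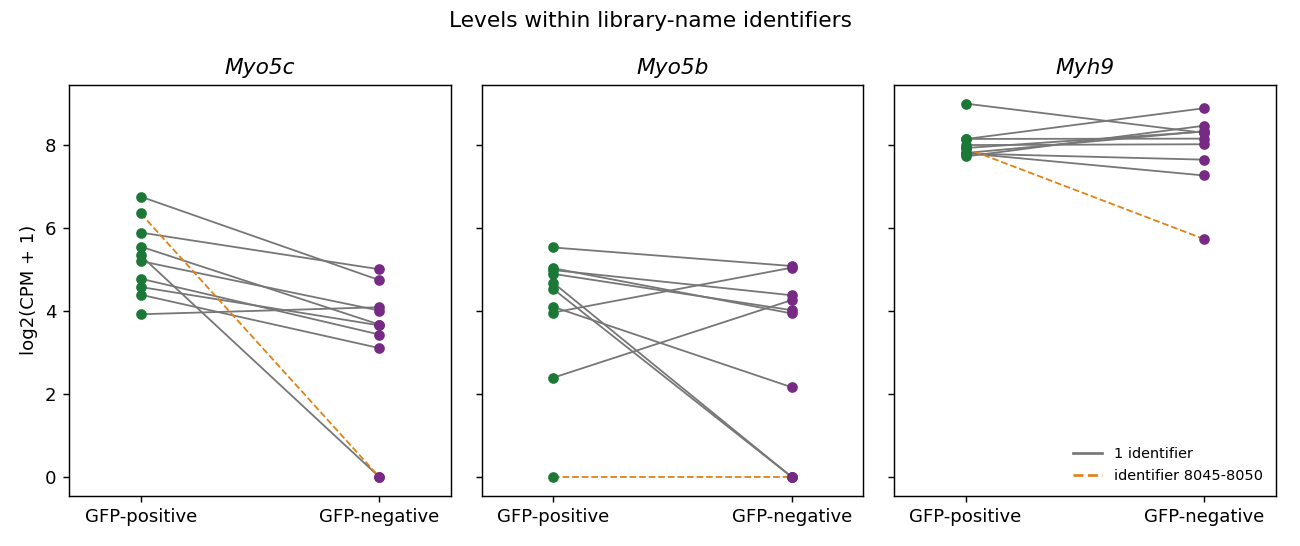
Levels of Myo5c, Myo5b and Myh9 as log2(CPM + 1) in the GFP-positive (left) and GFP-negative (right) population of each of 10 library-name identifiers joined by a line (both GFP-positive libraries of 61-1 averaged); the dashed line is 8045-8050, whose libraries held 25458 to 57728 counts. Myo5c lines fall to the right in 9 of 10 identifiers, while those of Myh9 do so in 4 of 10.

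Both library sets gave higher Myo5c means in GFP-positive cells, with different precision. In set 1 the 5 GFP-positive libraries held 46.0, 13.5, 14.2, 80.8 and 20.02 CPM, against 0 to 19.1 CPM with a median of 9.69 in the 6 GFP-negative libraries. Of those 5 libraries, GFP-positive 2 and GFP-positive 3 lay within the GFP-negative range. Myo5c did not pass the filter on low counts in set 1, so no fold change was fitted over its 11 libraries. Without the 3 libraries of 8045-8050 it passed the filter and had a log2 fold change of 0.77 (SE 0.56). In set 2 the GFP-positive libraries ran from 26.5 through 38.9 to 107 CPM and the GFP-negative ones from 0 through 13.4 to 31.2 CPM. GFP-positive 10 was the one GFP-positive library of set 2 below the highest GFP-negative library of the set. The fitted log2 fold change in set 2 was 1.496 (SE 0.50). Without GFP-positive 9, the library with the highest level, the log2 fold change over all libraries was 1.12, and without the 4 libraries under 100000 counts it was 1.22.

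Myo5b, the closest relative of Myo5c in the set, carries Rab11-positive recycling vesicles to the apical membrane of enterocytes, and its loss in people causes microvillus inclusion disease. The gene is on chromosome 18 (74440936 to 74771493, plus strand). It ranged from 0 through 22.2 to 45.3 CPM in GFP-positive libraries and from 0 through 14.8 to 33.0 CPM in GFP-negative libraries. Only GFP-positive 1, the deepest library, exceeded the highest GFP-negative library. The 2 populations were not separated, with a log2 fold change of 0.39 (SE 0.42, 95% interval -0.45 to 1.23, edgeR adjusted p = 0.997). Within identifiers, GFP-positive cells had more Myo5b in 7 of 10 and less in 2, and in 8045-8050 no library had a count. In 7907 and 7914 the GFP-negative libraries had no Myo5b count while GFP-positive libraries stood at 22.2 and 24.7 CPM, which lie below what 3 counts would mean in those GFP-negative libraries, 25.8 and 29.4 CPM.

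Myo6, the motor that walks toward the pointed end of actin and draws endocytic vesicles inward from the apical membrane, lies on chromosome 9 (80165031 to 80311729, plus strand). It ranged from 0 through 41.3 to 77.6 CPM in GFP-positive and from 0 through 35.9 to 73.0 CPM in GFP-negative libraries. Groups overlapped almost fully. The log2 fold change of -0.04 (SE 0.33, 95% interval -0.69 to 0.62, edgeR adjusted p = 0.997) took the opposite sign, up to 0.080, without the filter or with single libraries left out. In 7 of 10 identifiers GFP-positive cells had the lower Myo6 level, with 41.3 CPM in GFP-positive and 73.0 CPM in GFP-negative cells of 3034.

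Myo1d, a single-headed class I motor that binds membranes and is found in the enterocyte brush border, lies on chromosome 11 (80482126 to 80780025, minus strand). Its libraries ran from 0 through 23.5 to 43.0 CPM in GFP-positive and from 0 through 27.8 to 68.6 CPM in GFP-negative cells. No GFP-positive library exceeded the highest GFP-negative one. Its fitted log2 fold change came to -0.34 (SE 0.38, 95% interval -1.10 to 0.42, edgeR adjusted p = 0.997). GFP-positive cells had less Myo1d in 7 of 10 identifiers and more in 2, and 8045-8050 had no count. In library set 1, where Myo5b and Myo1d fell below the filter, exact two-sided permutation tests of mean log2(CPM + 1) gave differences of 0.37 and 0.55 (p = 0.814 and p = 0.736, 5 GFP-positive and 6 GFP-negative libraries).

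Myo10, which moves to the tips of filopodia and carries integrins there, lies on chromosome 15 (25622525 to 25813673, plus strand). It ranged from 26.9 through 83.8 to 358 CPM in GFP-positive and from 17.3 through 80.5 to 160 CPM in GFP-negative libraries. The medians were close, and the GFP-positive mean was raised by 2 libraries, GFP-positive 9 at 358 CPM (307 counts) and GFP-positive 1 at 298 CPM (1262 counts), both above every GFP-negative library. Their GFP-negative partners by name held 112 and 160 CPM, and 160 CPM is the highest GFP-negative value. GFP-positive cells had more Myo10 in 5 of 10 identifiers, and 7789-7795 went the other way with 48.6 CPM in GFP-positive and 142 CPM in GFP-negative cells. The fit gave a log2 fold change of 0.47 (SE 0.33, 95% interval -0.21 to 1.15, edgeR adjusted p = 0.997), and it was 0.18 without GFP-positive 9 and 0.25 without GFP-positive 1.

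Myh9 encodes the heavy chain of nonmuscle myosin IIA, the main contractile motor of most cells, and lies on chromosome 15 (77760587 to 77842175, minus strand). It had the best counting precision of the set, with 5933 counts over GFP-positive and 1604 over GFP-negative libraries. Levels ran from 144 through 243 to 511 CPM in GFP-positive and from 34.6 through 271 to 473 CPM in GFP-negative libraries. The 2 lowest GFP-negative values, 34.6 and 78.6 CPM, rest on 2 counts each in libraries 4 and 5. The fit gave Myh9 a log2 fold change of 0.11 (SE 0.23, 95% interval -0.36 to 0.58, edgeR adjusted p = 0.997) and was -0.021 without libraries under 100000 counts.

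Myh9 was the member whose difference between populations varied most in size between the library sets. In set 1 the GFP-positive libraries held 511, 345, 283, 242 and 243 CPM, against 34.6 to 320 CPM with a median of 225 in GFP-negative libraries, a log2 fold change of 0.60 (SE 0.35, edgeR adjusted p = 0.933). In set 2 they ran from 144 through 222 to 282 CPM in GFP-positive and from 153 through 290 to 473 CPM in GFP-negative libraries, a log2 fold change of -0.33 (SE 0.25, edgeR adjusted p = 0.897). Within set 1 edgeR called 0% of 5256 genes at the adjusted threshold, with 5.4% at an unadjusted p under 0.05, and within set 2 it called 1.28% of 6952, 0.0432% higher and 1.24% lower, with 6.88% at an unadjusted p under 0.05. No member was among them, Myo5c left aside as a description. The interaction of population with library set, set 2 minus set 1, was -0.96 for Myh9 (SE 0.44, unadjusted p = 0.0353, edgeR adjusted p = 0.762). At an unadjusted p under 0.05, 6.4% of all genes had such an interaction and 0% passed after adjustment. For the other 6 members the interaction ran from -0.51 (Myo1d, SE 0.76) to 0.48 (Myo5b, SE 0.85), and for Myo5c it was 0.44 (SE 0.77). So different signs of Myh9 in the 2 sets were not shown to differ once all genes were counted.

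Myh14 encodes the heavy chain of nonmuscle myosin IIC, found with IIA at epithelial apical junctions, and lies on chromosome 7 (44605803 to 44670843, minus strand). It ranged from 14.4 through 20.5 to 135 CPM in GFP-positive and from 0 through 22.02 to 78.6 CPM in GFP-negative libraries. The highest value of each population, 135 and 78.6 CPM, came from 5 counts in GFP-positive 4 and 2 counts in GFP-negative 5, the shallowest library of each. In set 2, without those libraries, levels were 20.7 ± 4.47 CPM in GFP-positive (SD, n = 6) and 19.5 ± 18.5 CPM in GFP-negative cells (SD, n = 6). Over all libraries Myh14 had a fitted log2 fold change of 0.07 (SE 0.40, 95% interval -0.73 to 0.87, edgeR adjusted p = 0.997).

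**Figure D3:**
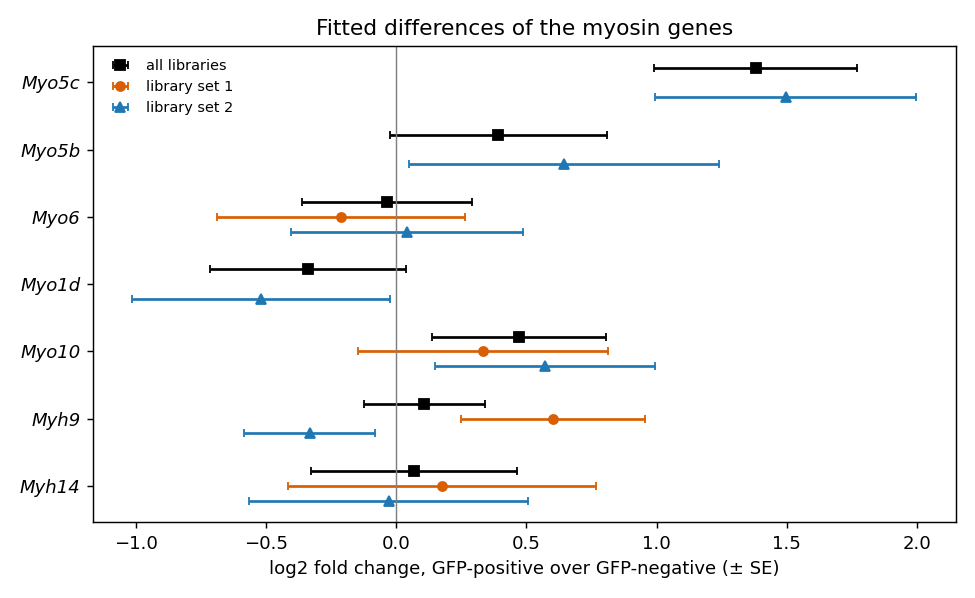
Fitted log2 fold change of each myosin gene, GFP-positive over GFP-negative, with its standard error, over all libraries (squares), library set 1 (circles) and library set 2 (triangles); Myo5c, Myo5b and Myo1d have no set 1 value because they fell below the filter there. Myo5c sits at 1.38 and 1.496, and Myh9 sits at 0.60 in set 1 and -0.33 in set 2.

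Levels can be compared between genes only per length, so CPM were divided by the longest annotated transcript in kilobases. Over all 23 libraries Myh9 was the most abundant myosin of the set, with a median level of 34.3 CPM per kilobase, above Myo10 in 22 of 23 libraries. Myo10 followed at 10.1 CPM per kilobase, above Myo6 in 20 of 23. Below them the order was Myo6 (5.03 CPM per kilobase), Myo1d (4.76), Myh14 (3.26), Myo5c (2.83) and Myo5b (2.43). Neighbours among these 5 were not separated: each was above the next in 12 to 14 of the 23 libraries. The median level of Myo5c was 5.69 CPM per kilobase in GFP-positive and 1.74 CPM per kilobase in GFP-negative libraries. Among the medians of the 7 genes it came after Myh9 and Myo10 in GFP-positive libraries and was the lowest in GFP-negative libraries.

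The members did not vary as a block. Over the 19 libraries with at least 100000 counts, 21 pairs of members were compared and none passed a permutation test after Benjamini-Hochberg adjustment. The pair with the highest correlation was Myo5b and Myo6 (Pearson r = 0.61, permutation p = 0.0079, adjusted p = 0.166; Spearman rho = 0.63, permutation p = 0.0047, adjusted p = 0.0987, n = 19). Without the 2 libraries farthest from the median of Myo5b, r was 0.32, so the Pearson value over these 19 libraries depends on them. Within library set 1 it was r = 0.38 and rho = 0.67 (n = 8), and within set 2 r = 0.67 and rho = 0.65 (n = 11). Within GFP-positive libraries it was r = 0.18 and rho = 0.28 (n = 10), and within GFP-negative libraries r = 0.78 and rho = 0.75 (n = 9). GFP-negative 10 and GFP-negative 11 had no Myo5b count. Over all 23 libraries r without the farthest 2 was 0.70. Myo5c and Myo5b, the class V pair, had r = 0.36 and rho = 0.40 (permutation p = 0.126 and 0.0942, adjusted p = 0.441 and 0.494, n = 19), with r = 0.34 without the farthest 2 libraries. With the 4 shallow libraries included, 8 pairs passed by Pearson and 1 by Spearman.

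The genes whose levels ran most like Myo5c over those 19 libraries were not myosins. Ranked by Spearman rho among 4003 genes whose mean log2 CPM reached 5, the first 5 were Arf6 (rho 0.87), Prpf18 (0.75), Ide (0.75), Arl6ip5 (0.75) and Atp5e (0.71). Arf6 is a small GTPase of plasma membrane traffic, Prpf18 a splicing factor, Ide the insulin-degrading protease, Arl6ip5 a membrane protein of the endoplasmic reticulum and Atp5e a subunit of ATP synthase. Arf6 had a median of 56.1 CPM (26.9 to 95.6) in GFP-positive and 44.4 CPM (0 to 86.4) in GFP-negative libraries. Its rho with Myo5c was 0.71 within set 1 and 0.79 within set 2. These points share library depth and the sort, so the ranking is a description. Of the members with enough level to be ranked, Myo6 came at place 731 (rho 0.26), Myo10 at 1350 (rho 0.14) and Myh9 at 3611 (rho -0.28).

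Among the partners of these motors described here, edgeR called none in either direction, over all libraries or within a library set. Lists are read against all 6621 tested genes, of which 58.5% had a positive log2 fold change, with a median of 0.07. Among light chains and regulators of myosin II, 10 of 12 were tested, 9 were positive and the median was 0.24, with the regulatory light chain Myl12a at 0.04 (SE 0.18). Among Rab GTPases and other cargo partners of class V motors, 10 of 14 were tested, 9 were positive and the median was 0.19, with the recycling GTPase Rab11b at 0.27 (SE 0.21). Adaptors of myosin VI had 4 of 6 tested members positive and a median of 0.12, with the autophagy adaptor Tax1bp1 at 0.44 (SE 0.21). Actin and its crosslinkers had 8 of 9 positive and a median of 0.17, with Actb at 0.27 (SE 0.16). Within set 1, 9 of 9 of this list were positive (median 0.26, Actb 0.71, SE 0.24). Within set 2, 5 of 9 were positive (median 0.019, Actb -0.13, SE 0.17). Light chains and regulators had 7 of 10 positive and a median of 0.35 within set 1, and 8 of 11 and 0.058 within set 2. Cargo partners of class V motors had 6 of 9 positive and a median of 0.26 within set 1, and 10 of 10 and 0.19 within set 2. The medians of all genes were 0.053 within set 1 and 0.067 within set 2. Of all tested genes, 2844 of 5256 were positive within set 1 and 3899 of 6952 within set 2. Differences of these lists between the sets were not tested.

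Lists of actin-based structures were read over all libraries and within each library set. For brush border genes and the other myosins, the members that passed the filter were not the same in each fit. Brush border genes had 3 of 7 tested members positive and a median of -0.14 over all libraries, but 3 of 5 and a median of 0.10 within set 1, and 7 of 8 and a median of 0.14 within set 2. Of this list, Ezr, which tethers the membrane of microvilli to actin, had 0.47 (SE 0.21, edgeR adjusted p = 0.992). Filopodia genes and partners of myosin X had 1 of 5 positive and a median of -0.04 over all libraries, 0.24 within set 1 and -0.28 within set 2, with the GTPase gene Cdc42 at -0.02 (SE 0.18). Of 23 other myosin genes, 10 were tested, 4 were positive and the median was -0.14 (-0.04 within set 1 and -0.31 within set 2), with Myo18a at 0.38 (SE 0.29).

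Markers of other cell types differed between the libraries in which these genes were compared. Fibroblast markers summed to 0 through 215 to 2274 CPM in GFP-positive and 157 through 1950 to 9079 CPM in GFP-negative libraries (lowest, median, highest), and all 11 of 11 had counts in both. Macrophage markers summed to 131 through 369 to 32204 CPM in GFP-positive and 419 through 2728 to 6953 CPM in GFP-negative libraries, with 12 of 12 detected in both, and the highest value was that of GFP-positive 3. In library set 2 these sums did not overlap: fibroblast markers reached at most 1012 CPM in GFP-positive and at least 1337 CPM in GFP-negative libraries, and macrophage markers at most 839 CPM in GFP-positive and at least 2500 CPM in GFP-negative libraries. In that set edgeR called 6 of 9 tested fibroblast and 9 of 9 tested macrophage markers lower in GFP-positive libraries at the adjusted threshold. In set 2, all 12 epithelial markers had a positive log2 fold change (median 0.36, 0 called), against 3899 of 6952 tested genes. Their summed level there had a median of 6189 CPM in GFP-positive and 4680 CPM in GFP-negative libraries. In set 1, 7 of 12 were positive (median 0.055, 0 called), against 2844 of 5256 tested genes. In set 1 fibroblast and macrophage sums overlapped between the populations. Myh9 is expressed by stromal cells as well as epithelium. The part of these cells in the values of any myosin was not tested. With GFP-positive 3 left out the log2 fold change of Myo5c was 1.48.

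**Figure D4:**
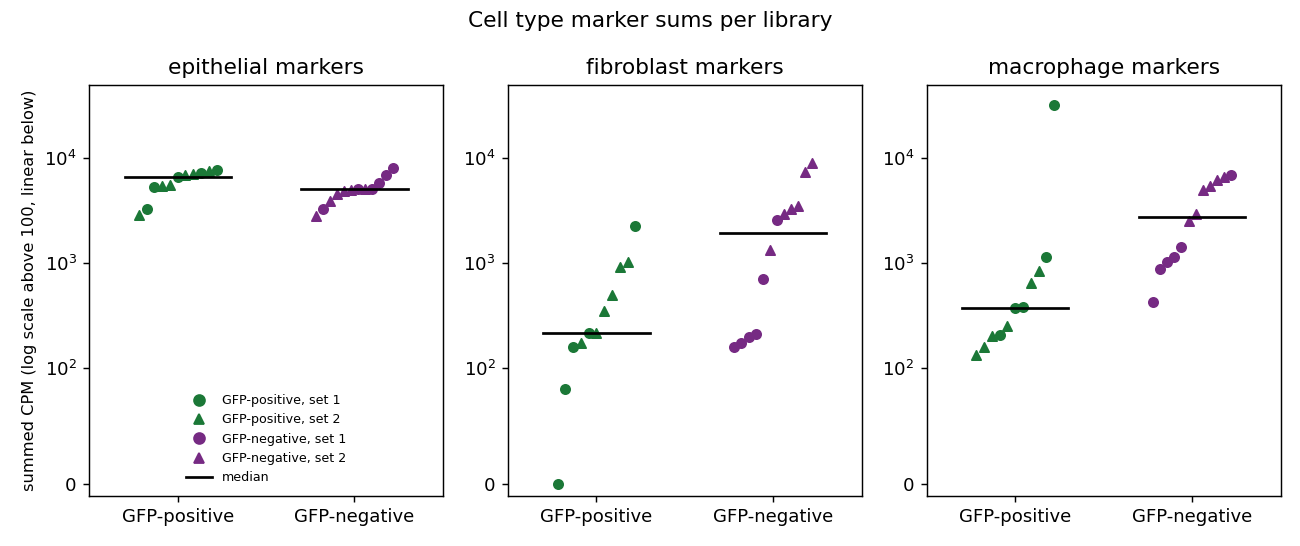
Summed CPM of epithelial, fibroblast and macrophage markers per library (points, linear below 100 and logarithmic above), GFP-positive left of GFP-negative, circles for library set 1 and triangles for set 2, with a line at the median. Epithelial sums of set 2 run from 2884 through 6189 to 7489 CPM in GFP-positive and from 2805 through 4680 to 5098 CPM in GFP-negative libraries. Fibroblast and macrophage sums of set 2 are at most 1012 and 839 CPM in GFP-positive and at least 1337 and 2500 CPM in GFP-negative libraries.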

How the data were processed

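Poly(A)-selected directional libraries of 23 samples were quantified by the authors, who deposited estimated counts per gene as whole numbers. The submitters' processing notes name Salmon 1.3.0 and mm10. The annotation is not given in the sources used here. Groups came from the titles and identifiers from library names. CPM are counts divided by the library total, scaled to a common sum without TMM factors. Fold changes came from edgeR 4.0.16 in R 4.3.3 (TMM, filterByExpr by group, robust quasi-likelihood fit without covariate, Benjamini-Hochberg adjustment over all genes tested, threshold 0.05), GFP-positive over GFP-negative, tested on simulated data first. All 7 members passed the filter over all libraries. Relations used log2 CPM with TMM factors, a prior count of 2 and 100000 permutations. Gene positions and lengths are from GENCODE M21, where 94.7% of the identifiers were found, and promoters from RefSeq. Alternatives included DESeq2 1.42.0, other scalings, no filter, replicate blocks, and libraries left out. No pair of libraries matched within sampling noise (121 pairs). Intervals and floors, set at 3 counts, cover counting error only. Members and lists were chosen with earlier results of these data known. Named genes are the members, for each partner list its called members or else its most expressed tested member, and the 5 genes most like Myo5c. The 1 gene called over all libraries is named too. The result of 1 partner list is not reported here.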

Additional observations from a re-analysis of the deposited data

Results flagged for a closer look

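Among 28 combinations of member, library set and population, each with 5 or 6 libraries, 1 had a library far from the others by Dixon's criterion, which flags about 1 in 20 such groups by itself. This was Myo10 in GFP-positive 9 of library set 2, at 358 CPM (307 counts), against 44.3 to 130 CPM in the other 5 GFP-positive libraries of the set. The same library had the highest Myo5c level, 107 CPM.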

How the results depend on the processing

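Over 33 alternatives the log2 fold change of Myo5c ran from 1.12 to 1.62. These fits reuse the libraries by whose values Myo5c was chosen, so its kept direction is a description. The log2 fold change of Myo5b ran from 0.22 to 0.59, that of Myo1d from -0.48 to -0.20 and that of Myo10 from 0.13 to 0.60. All 3 kept the direction of the reported value. No tested member passed the threshold in any of the 33 alternatives (smallest edgeR adjusted p 0.496, for Myo10 without the filter). Myo6, Myh9 and Myh14 lie near 0 and changed sign in 8, 4 and 8 of 33. Myo6 had 0.079 without the filter, and -0.16 to 0.080 with single libraries left out. Myh9 had -0.021 without libraries under 100000 counts, -0.0122 without identifier 8045-8050, -0.053 without GFP-positive 3 and shallow libraries together, and -0.0124 to 0.22 with single libraries left out. Myh14 had -0.028 without shallow libraries, -0.047 without GFP-positive 3 as well, and -0.082 to 0.18 with single libraries left out. The alternatives without 8045-8050 and without GFP-positive 3 and shallow libraries together were chosen after seeing the data. The count of called genes over all libraries, 1 by edgeR, was 24 by DESeq2, 0 without GFP-positive 3 and shallow libraries, and 0 to 16 with single libraries left out. It was 0 without GFP-negative 1, 2, 5, 6, 7, 8, 9, 10, 11 or 12, 3 without GFP-positive 1 and 16 without GFP-positive 3. For pairs of members, 8 of 21 relations passed with all 23 libraries. The cause was not tested.

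Title numbers were not taken as pairs: deviations of same-numbered libraries correlated over 0.1 in 2 of 11 cases, and those of libraries sharing an identifier in 5 of 10. A replicate block by title number gave 2 called genes and log2 fold changes of 0.018 for Myo6 and -0.090 for Myh14, and a replicate block by identifier gave 3 called genes, with Myo10 at 0.13. Within set 2 the identifier block gave 140 called genes, against 89 without it, and 0.14 for Myh14. These blocks turned no other member's direction and gave no member a call. Merged exons in place of the longest transcript lowered all levels per kilobase and put Myo5b and Myo5c last as before. Depth limits the rarer members most, since 3 counts stand for 0.708 to 118 CPM across libraries.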

Other observations

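Among the other myosin genes, those with the smallest unadjusted p over all libraries were picked after their values were seen and are given as values. Myh10, the heavy chain of nonmuscle myosin IIB, averaged 23.5 ± 17.7 CPM in GFP-positive (SD, n = 11) and 45.0 ± 54.8 CPM in GFP-negative libraries (SD, n = 12), with a log2 fold change of -1.004 (SE 0.46, edgeR adjusted p = 0.992). Its medians were 18.9 and 27.1 CPM, and the highest GFP-negative value, 199 CPM, was in set 1. Within set 1 the medians were 18.9 and 16.9 CPM, and Myh10 did not pass the filter there. Myo1e, a class I motor of endocytic sites, averaged 42.1 ± 10.5 CPM in GFP-positive and 22.3 ± 16.3 CPM in GFP-negative libraries, with a log2 fold change of 0.66 (SE 0.32, edgeR adjusted p = 0.992). Myo1a, the brush border motor, had no count in 1 of 11 GFP-positive and 6 of 12 GFP-negative libraries and did not pass the filter on low counts. Its median over all 23 libraries was 3.50 CPM, and the GFP-negative libraries had the lower median depth. A count of 0 therefore does not show that Myo1a was absent. Of the partner genes, likewise picked after their values were seen, Eps8, an actin-capping and bundling protein of microvilli, had a log2 fold change of 0.80 over all libraries (SE 0.24, edgeR adjusted p = 0.730). The light chain gene Myl9, which is also in the smooth muscle marker list, had -1.52 within set 2 (SE 0.53, edgeR adjusted p = 0.295).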
